A study of Mus musculus with 6 samples.

Results

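Levels of 9 transcripts of the cytotoxic granule and its intracellular inhibitors were examined in lung group 2 innate lymphoid cells (ILC2s), tissue-resident lymphocytes that answer the alarmin IL-33 with type 2 cytokines. They are the granzymes Gzma, Gzmb and Gzmc, the pore-former Prf1 (perforin), the granule proteoglycan Srgn (serglycin) and the clade B serpins Serpinb1a, Serpinb6a, Serpinb6b and Serpinb9. The 9 genes were chosen by symbol, and they were selected on earlier results of the same comparison, so their differences between genotypes are given as a description, with no p-value. Where one of them is said to be called or not, this is its place in the fit over all genes and supports nothing about it. All 9 were found among the 16588 genes of the table. Of these, 12150 genes had enough counts to be tested, including 8 of the 9, with Gzmc falling under the minimum.

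RNA was sequenced from 6 libraries, 3 labelled Cnr2 KO and 3 labelled C57BL/6 (wild type, WT). Cnr2 is the gene of CB2, a cannabinoid receptor, and the labels set ILC2s of both Cnr2 genotypes against each other. Both groups of mice had received 0.5 µg of recombinant mouse IL-33 through the nose on each of 3 days. Lung ILC2s were taken on day 4 and, after sorting, were kept in culture for 18 h, and 10 pg of RNA per library was copied to cDNA with the SMARTer Ultra Low Input v3 kit. The labels name lung as the tissue, whereas the series title names adipose tissue. How the Cnr2 allele was made, in which cells it acts, and whether replicates came from separate animals are not stated in the labels. The p-values below therefore rest on the spread among these libraries alone, and that spread may be technical.

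Total counts were 17867558 to 19399820 in libraries labelled Cnr2 KO, against 19056192, 129617819 and 19091969 in WT replicates 1, 2 and 3. WT replicate 2 thus had 6.88 times the mean depth of the other 5. Cnr2 itself had 147, 139 and 135 counts in libraries labelled Cnr2 KO, against 76, 503 and 60 counts in WT, and was higher under the Cnr2 KO label by 1.01 on the log2 scale (SE 0.16, edgeR adjusted p = 2.11e-05). This goes against the direction of the label. The allele is not described, and counts over the whole gene cannot show whether a part of it was removed. They do not decide on the label, and the groups are therefore named as labelled throughout. The sum of 13 ILC2 markers, led by Il5 and Il2ra, was 14369.4 to 15526.6 CPM in libraries labelled Cnr2 KO and 14539.0 to 15149.0 CPM in WT. The groups overlapped in this sum (exact permutation p = 0.5, 0.667 after Benjamini-Hochberg adjustment over 4 marker sums), of which Il5 gave 35.57%. Single markers did differ, with 9 of the 13 higher, 3 lower (Il2ra, Il13 and Areg) and Il5 not called. Among all tested genes 33.1% were higher and 33.2% lower. Opposite moves offset each other in the sum. Il2ra was at 2680.1 CPM in libraries labelled Cnr2 KO and 5450.5 CPM in WT. Gata3 was at 1073.2 against 288.4 CPM and Arg1 at 1815.1 against 784.8 CPM, both named after their values were seen. The overlap in the sum therefore does not show that ILC2 content was equal.

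Granzymes are serine proteases that cytotoxic lymphocytes store in granules on the acidic chains of serglycin and release with perforin, which opens the way into the target cell. Granzyme A and granzyme B are the main forms in mouse lymphocytes, and both enter the granule as precursors that cathepsin C activates. Clade B serpins stay in the cytosol and nucleus, where each traps certain proteases in a covalent complex. Mouse Serpinb9 inhibits granzyme B and Serpinb6b inhibits granzyme A, whereas Serpinb1a inhibits neutrophil elastase and related enzymes, and Serpinb6a inhibits cathepsin G.

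The 4 serpins lie on chromosome 13 within 1.16 Mb (GRCm38, positions from GENCODE). Serpinb1a (ENSMUSG00000044734.16) spans chr13:32842092-32851185 on the minus strand, Serpinb6b spans chr13:32965209-32979067 and Serpinb9 spans chr13:33003250-33017957, both on the plus strand, so that these 3 genes fill 175.9 kb. Serpinb6a lies apart at chr13:33917918-34002794 on the minus strand. Gzma (ENSMUSG00000023132.8) is on the same chromosome at chr13:113093825-113100981. Gzmb, at chr14:56258838-56262260, and Gzmc, at chr14:56231441-56234656, are neighbours on chromosome 14 with 24.2 kb between them. Prf1 is at chr10:61297833-61304680 and Srgn at chr10:62493833-62527451.

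Bases upstream of the RefSeq transcript starts are shown for the granzyme A and B genes and for the serpins that inhibit them, because these are the protease and inhibitor pairs whose levels are compared below. The sequences are from RefSeq (GRCm38.p6), run 5′ to 3′ on the gene's strand within the 250 bases before the start, and leave out any base of an annotated exon. Of the 9 genes, 8 were matched in the promoter table, and Serpinb1a was not. Capitals mark matches to 5 motifs searched on both strands. AP-1 letters (TGANTCA) occur in 6.7% of the upstream 250 bases of 32851 promoters. IRF letters (GAAANNGAA) occur in 7.1% of them and RUNX letters (TGTGGT) in 14.0%. For STAT (TTCNNNGAA) the share is 7.0%. The GATA letters (AGATAA) are found in 10.0%. The stretch for Serpinb9 is chr13:33004291-33004540 (plus strand), that for Serpinb6b chr13:32965011-32965208 (plus), that for Gzma chr13:113100982-113101231 (minus) and that for Gzmb chr14:56262335-56262584 (minus).
Serpinb9: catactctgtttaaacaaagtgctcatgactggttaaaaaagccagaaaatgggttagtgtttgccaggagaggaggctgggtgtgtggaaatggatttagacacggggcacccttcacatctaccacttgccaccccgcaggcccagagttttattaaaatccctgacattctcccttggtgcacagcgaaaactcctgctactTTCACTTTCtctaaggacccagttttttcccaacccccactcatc
Serpinb6b: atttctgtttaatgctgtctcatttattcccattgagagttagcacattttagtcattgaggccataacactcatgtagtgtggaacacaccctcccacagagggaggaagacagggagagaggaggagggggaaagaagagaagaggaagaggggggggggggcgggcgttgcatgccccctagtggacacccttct
Gzma: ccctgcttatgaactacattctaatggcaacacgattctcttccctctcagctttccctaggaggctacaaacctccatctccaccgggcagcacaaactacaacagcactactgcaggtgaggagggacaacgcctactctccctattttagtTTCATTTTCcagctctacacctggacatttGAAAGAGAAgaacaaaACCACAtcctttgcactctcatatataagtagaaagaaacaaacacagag
Gzmb: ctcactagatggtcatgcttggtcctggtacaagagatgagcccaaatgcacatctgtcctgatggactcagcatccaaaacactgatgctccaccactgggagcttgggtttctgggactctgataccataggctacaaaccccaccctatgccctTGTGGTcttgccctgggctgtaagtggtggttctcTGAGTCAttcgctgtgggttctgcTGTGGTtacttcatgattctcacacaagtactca
In the Serpinb9 stretch an IRF match begins 45 bases before the start, on the strand opposite to the gene. That stretch lies inside the GENCODE span of Serpinb9, which starts at 33003250, so it is upstream of the RefSeq start only. The Gzma stretch has IRF matches at 66 bases (gene strand) and 96 bases (opposite strand) and a RUNX match at 50 bases (opposite strand). The Gzmb stretch has an AP-1 match at 58 bases and RUNX matches at 93 and 34 bases, all on the gene strand. In Gzmc, RUNX letters begin at 108 and 174 bases, and in Prf1 at 130 bases. The letters searched were not found in the stretches of Serpinb6b, Srgn and Serpinb6a. Those stretches held 198 bases for Serpinb6b, 244 and 76 bases for Srgn, and 91 bases for Serpinb6a, whose other start left 0 bases. They are shorter than the 250 bases behind the shares above, so the absence of letters says less there. No match overlapped another, and a match describes the letters only.

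Among the granzymes, Gzma was the most abundant transcript per kb of exon in every library and Gzmb came next, while Gzmc was close to absent. Gzma, which encodes the tryptase-like granzyme A, stood at 43.5, 46.9 and 57.3 CPM in libraries labelled Cnr2 KO, against 60.1, 76.2 and 55.7 CPM in WT (CPM, counts scaled to library size with TMM factors). The groups overlapped, since replicate 3 labelled Cnr2 KO lay above WT replicate 3. Means were 49.2 ± 7.17 CPM in libraries labelled Cnr2 KO and 64.0 ± 10.8 CPM in WT (SD, n = 3 each), and the log2 fold change was -0.40 (SE 0.11). It was -0.24 without WT replicate 2, the deepest and highest library, and Gzma was not called with DESeq2.

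Gzmb encodes granzyme B, which cuts after aspartate and activates caspases. Its level was 32.51, 20.03 and 20.85 CPM in libraries labelled Cnr2 KO, against 19.3, 22.9 and 19.6 CPM in WT. Replicate 1 labelled Cnr2 KO was high and the other 5 libraries lay close together, so the groups overlapped. The log2 fold change was 0.23 (SE 0.14), which was not called, and it was -0.03 without replicate 1 labelled Cnr2 KO. Without replicate 2 labelled Cnr2 KO it was 0.36 and was called.

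Gzmc, one of the rodent granzymes next to Gzmb, had 1, 3 and 4 counts in libraries labelled Cnr2 KO and 7, 20 and 7 counts in WT. These were levels of 0.0514, 0.160 and 0.222 CPM against 0.368, 0.155 and 0.370 CPM in WT, so the groups overlapped and no difference could be read at this depth. Of its 50-base stretches, 4.14% also occur in Gzme, Gzmg or Gzmd transcripts, so that part of its few counts is uncertain.

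Prf1 had 51, 19 and 45 counts in libraries labelled Cnr2 KO and 28, 193 and 20 counts in WT. Its level was 2.62, 1.01 and 2.50 CPM in libraries labelled Cnr2 KO, against 1.47, 1.49 and 1.06 CPM in WT. Replicate 2 labelled Cnr2 KO was the lowest library and the other replicates of that label were the highest, so the groups overlapped. The log2 fold change was 0.58 (SE 0.34) and was not called. It was 0.90 without replicate 2 labelled Cnr2 KO, when it was called, and 0.36 without replicate 1 of that label.

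Srgn, the core protein that carries the granule's chondroitin or heparin chains, was the most abundant of the 9 transcripts per kb of exon. It stood at 931.7, 963.0 and 1040.9 CPM in libraries labelled Cnr2 KO, against 962.2, 1072.2 and 951.0 CPM in WT. The groups overlapped over nearly their whole range. Means were 978.5 ± 56.2 CPM in libraries labelled Cnr2 KO and 995.1 ± 67.0 CPM in WT (n = 3 each), with a log2 fold change of -0.03 (SE 0.05) and a 95% interval of -0.13 to 0.08. Srgn took 0.0981 ± 0.00611% of all counts in libraries labelled Cnr2 KO and 0.0991 ± 0.00678% in WT. Per kb of exon it ranked 58 of 16233 genes in both groups.

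**Figure D1:**
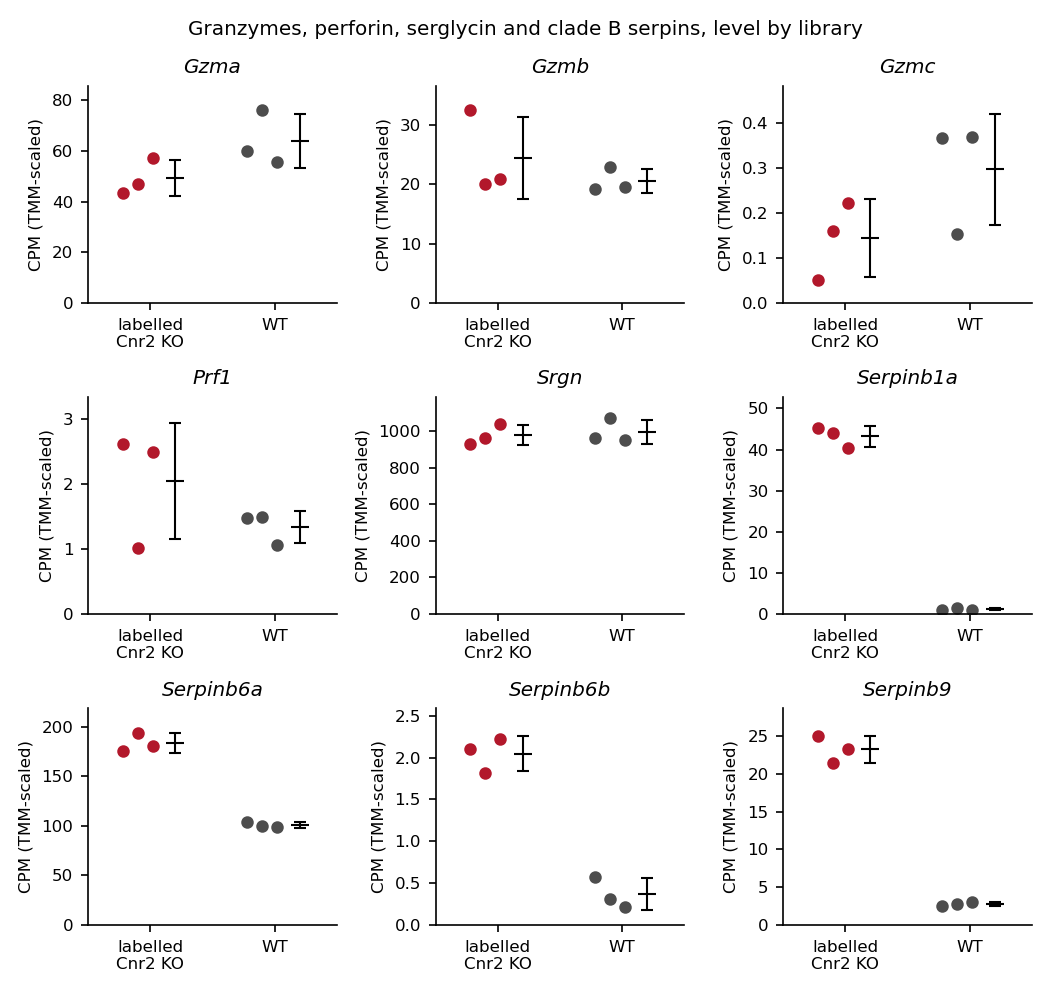
Level of each of the 9 genes in every library. The y axes give TMM-scaled CPM from 0, each point is 1 library (libraries labelled Cnr2 KO left, WT right, replicates 1 to 3 in order), and the bars are the mean ± SD (n = 3). The 4 serpins are higher in each library labelled Cnr2 KO than in any WT library, whereas the points of the granzymes, Prf1 and Srgn overlap between the groups.

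All 4 serpins stood higher in libraries labelled Cnr2 KO, by amounts between 1.82-fold and 31.8-fold. Serpinb1a was at 45.2, 44.0 and 40.3 CPM in libraries labelled Cnr2 KO, against 1.05, 1.502 and 1.057 CPM in WT. In counts this was 881, 824 and 727 in libraries labelled Cnr2 KO and 20, 194 and 20 in WT. The 3 values of each group lay close together and far from the other group. The log2 fold change was 4.99 (SE 0.13). Of its 50-base stretches, 2.81% occur in other transcripts, mostly of Serpinb1b and Serpinb1c, which had no row of their own.

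Serpinb9, the inhibitor of granzyme B, was at 25.0, 21.5 and 23.3 CPM in libraries labelled Cnr2 KO, against 2.47, 2.73 and 3.01 CPM in WT. The groups did not overlap, and the fold change of the fit was 8.50 (log2 fold change 3.09, SE 0.13). Only 0.378% of its 50-base stretches occur elsewhere, in Serpinb9b.

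Serpinb6b, the inhibitor of mouse granzyme A, was rare in both groups. It had 41, 34 and 40 counts in libraries labelled Cnr2 KO and 11, 40 and 4 counts in WT, the 40 counts being those of the deepest library. Its level was 2.11, 1.82 and 2.22 CPM in libraries labelled Cnr2 KO, against 0.578, 0.310 and 0.211 CPM in WT, with no overlap. The log2 fold change was 2.55, with an SE of 0.40 that reflects the low counts. Serpinb6c, Gm8436 and Serpinb6a share 2.92% of its 50-base stretches.

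Serpinb6a, the most abundant of the serpins per kb of exon, was at 175.8, 194.3 and 180.9 CPM in libraries labelled Cnr2 KO, against 104.3, 99.8 and 98.7 CPM in WT. Again the groups did not overlap, and the log2 fold change was 0.86 (SE 0.05), a fold of 1.82. The annotation of Serpinb6a overlaps Nqo2, Ripk1 and the antisense transcript 1110046J04Rik, all on the other strand, and 25.14% of its 50-base stretches occur in other transcripts. The counting is not stated to use strand, so reads from the stretches these genes share cannot be assigned between them, and the part of the neighbours in the Serpinb6a count was not tested.

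Of the 8 tested genes, 4 were called higher, all serpins, and 1, Gzma, was called lower in libraries labelled Cnr2 KO. Among all 12150 tested genes, 66.3% were called, 33.1% as higher and 33.2% as lower (edgeR, adjusted p under 0.05). Groups did not overlap in 4 of the 8, the serpins, and in 68.9% of all tested genes. The median log2 fold change was 0.72 over the 8 and 0.01 over all tested genes. Nothing is read from these counts, because the 9 genes were chosen with the contrast known. As these are bulk libraries, fewer cells that make a transcript and less transcript per cell cannot be told apart.

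**Figure D2:**
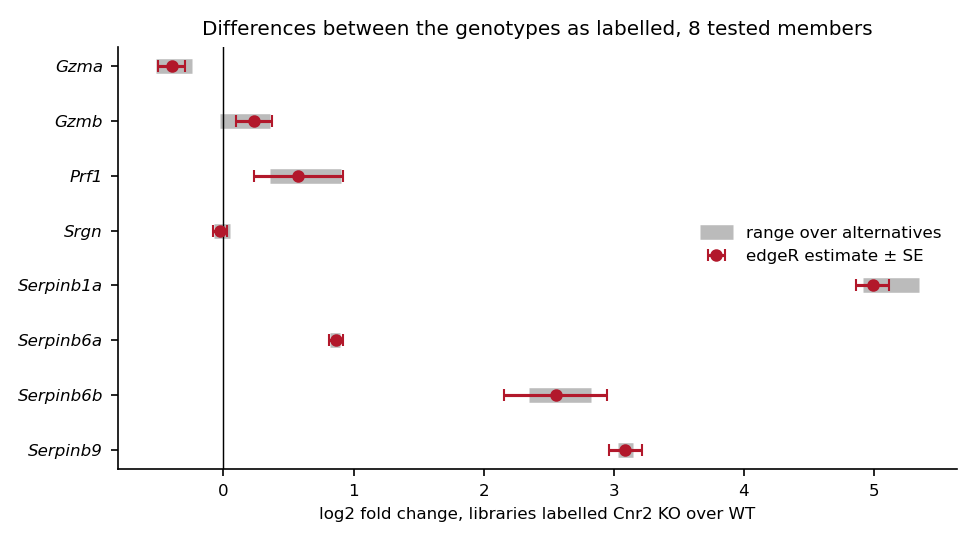
Log2 fold change of the 8 tested genes, libraries labelled Cnr2 KO over WT, on the x axis. Points and whiskers are the edgeR estimate ± SE, and grey bars the range over 14 alternative settings. Serpinb1a at 4.99 and Serpinb9 at 3.09 lie far right, and the bars of Gzmb and Srgn reach both sides of 0.

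Compared per kb of exon, the order of the levels also differed between the groups. In the libraries labelled Cnr2 KO, Srgn came first at 445.6 ± 25.6 CPM per kb, then Gzma at 48.9 ± 7.13, Serpinb6a at 33.96 ± 1.77, Serpinb1a at 18.8 ± 1.12 and Gzmb at 17.0 ± 4.86. Serpinb9 followed at 6.65 ± 0.499 CPM per kb, Serpinb6b at 0.905 ± 0.0917, Prf1 at 0.791 ± 0.345 and Gzmc at 0.162 ± 0.0965. Libraries overlapped between Serpinb1a and Gzmb and between Serpinb6b and Prf1, so the order within each of these pairs is not settled. In WT, Srgn stood at 453.1 ± 30.5 CPM per kb, Gzma at 63.6 ± 10.7, Serpinb6a at 18.7 ± 0.543 and Gzmb at 14.3 ± 1.42. Serpinb9 was next at 0.783 ± 0.0778 CPM per kb, before Serpinb1a at 0.522 ± 0.112, Prf1 at 0.519 ± 0.0952, Gzmc at 0.333 ± 0.138 and Serpinb6b at 0.162 ± 0.0838. Neighbours among the last 4 overlapped. Serpinb1a ranked 2867 of 16233 genes in libraries labelled Cnr2 KO and 10415 in WT. Serpinb9 ranked 5755 in libraries labelled Cnr2 KO and 9807 in WT. The order also depends on the exon length, which merges the exons of all annotated transcripts, with 5409 bases for Serpinb6a and 1006 for Gzma. In CPM without that division Serpinb6a stood above Gzma, at 183.7 against 49.2 in libraries labelled Cnr2 KO and 100.9 against 64.0 in WT.

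The makeup of the serpin transcripts differed accordingly. The Serpinb6a part of these shares and sums includes any reads of its overlapping neighbours and rests on the same exon length. Serpinb6a made up 56.3 ± 2.10% of the 4 serpins per kb in libraries labelled Cnr2 KO and 92.7 ± 0.499% in WT. Serpinb1a made up 31.1 ± 1.40% in libraries labelled Cnr2 KO and 2.60 ± 0.574% in WT. Serpinb9 accounted for 11.1 ± 1.02% in libraries labelled Cnr2 KO and 3.90 ± 0.485% in WT. The serpin sum was 60.2, 62.0 and 58.6 CPM per kb in libraries labelled Cnr2 KO, against 20.69, 20.03 and 19.66 CPM per kb in WT, without overlap. The sum of the 3 granzymes and perforin was 66.9, 61.2 and 72.7 CPM per kb in libraries labelled Cnr2 KO, against 74.2, 92.4 and 69.8 CPM per kb in WT, and overlapped.

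**Figure D3:**
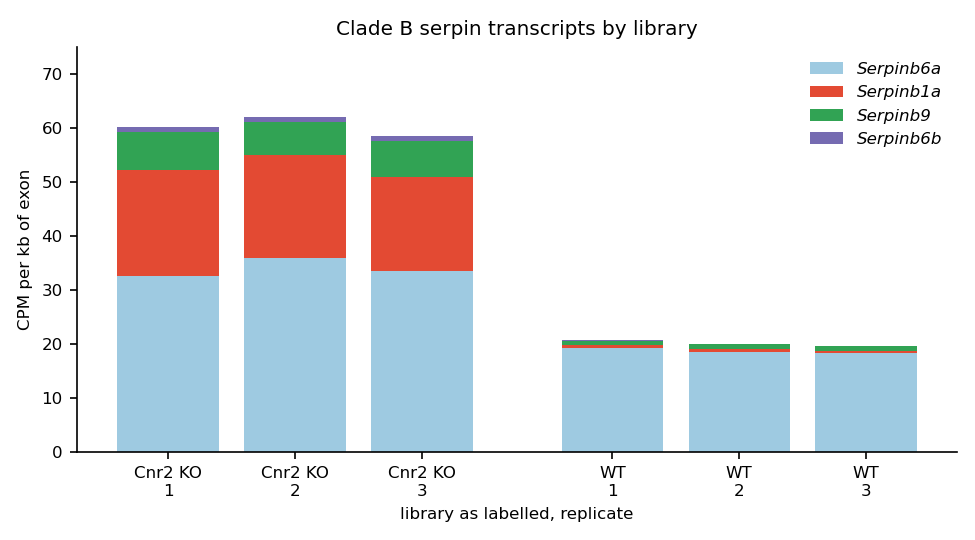
Clade B serpin transcripts stacked by library, in CPM per kb of exon on the y axis (from 0), with the libraries labelled Cnr2 KO on the left and WT on the right. The columns reach 58.6 to 62.0 in libraries labelled Cnr2 KO and 19.7 to 20.7 in WT, and the Serpinb1a and Serpinb9 segments are thick only on the left.

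Ratios of an inhibitor to its protease were higher in each library labelled Cnr2 KO than in any WT library. Serpinb9 over Gzmb, per kb, was 0.316, 0.441 and 0.459 in libraries labelled Cnr2 KO, against 0.0526, 0.0488 and 0.0633 in WT. Replicate 1 labelled Cnr2 KO, with its high Gzmb, had the lowest ratio of its group and still lay above all WT values. Serpinb6b over Gzma was 0.0215, 0.0172 and 0.0172 in libraries labelled Cnr2 KO, against 0.00427, 0.00181 and 0.00169 in WT. Gzma over Gzmb was 1.91, 3.35 and 3.92 in libraries labelled Cnr2 KO, against 4.45, 4.74 and 4.07 in WT. That ratio did not overlap either, although replicate 3 labelled Cnr2 KO came close to WT replicate 3. Gzmb over Prf1 was 22.3, 35.5 and 15.0 in libraries labelled Cnr2 KO, against 23.6, 27.6 and 33.3 in WT, and overlapped. All of these are ratios of transcripts, and no protein was measured.

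Genes beside the serpins on chromosome 13 were also compared. Within 500 kb of the stretch from Serpinb1a to Serpinb6a the table holds 17 genes, and 10 besides the serpins were tested. Of these 10, 5 were higher, 2 were lower and 3 were not called, with a median log2 fold change of 0.46. Among all tested genes 66.3% were called, 33.1% as higher and 33.2% as lower, so nothing is read about the stretch from these counts. Between the first and the last serpin 4 were tested, of which 3 were higher and 1, Gm6093, was not called (0.76, edgeR adjusted p = 0.143). The 3 higher ones were Nqo2, Ripk1 and 1110046J04Rik, which are the genes that overlap Serpinb6a. Reads from their shared stretches cannot be assigned between them and Serpinb6a. Nqo2, which encodes a quinone reductase, was at 43.5 ± 1.21 CPM in libraries labelled Cnr2 KO and 3.54 ± 0.849 CPM in WT, which is 3.73 on the log2 scale (SE 0.12, edgeR adjusted p = 5.86e-15). Ripk1, a kinase of death receptor signalling, was higher by 0.73 on the log2 scale (edgeR adjusted p = 3.06e-10), and 1110046J04Rik by 1.72 (edgeR adjusted p = 2.85e-04). On the flanks Wrnip1 (0.26) and Tubb2a (0.63) were higher and Tubb2b (-1.90) and Psmg4 (-0.86) were lower on the log2 scale. The neighbours were named for their position, after their values were seen.

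**Figure D4:**
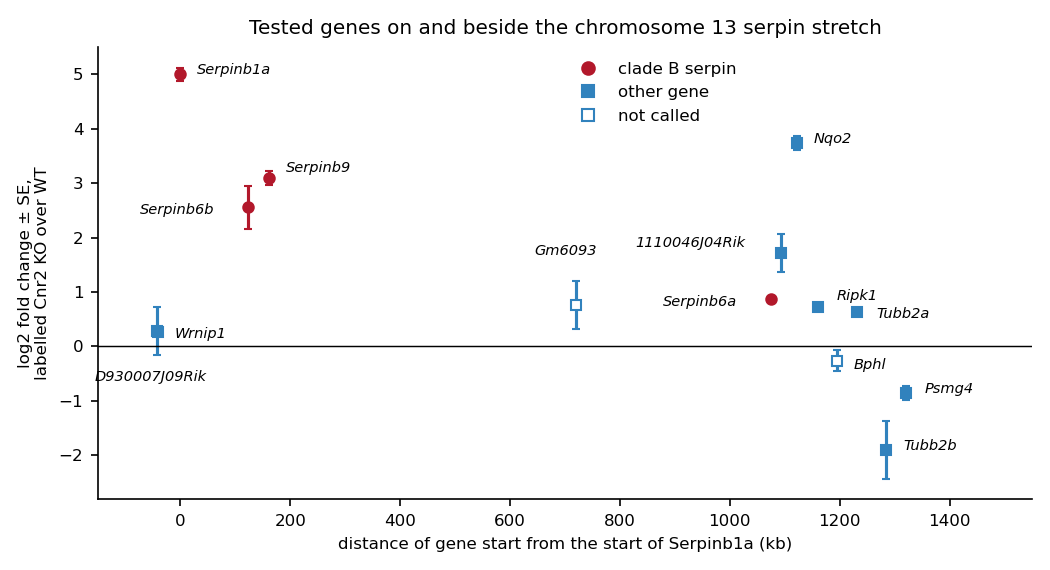
Log2 fold change ± SE (y axis, libraries labelled Cnr2 KO over WT) of tested genes against the distance of their start from that of Serpinb1a in kb (x axis). Red circles are the clade B serpins, blue squares other genes, and open squares genes that were not called. Serpinb1a, Serpinb6b and Serpinb9 stand together at the left with 4.99, 2.55 and 3.09, and Nqo2 at 3.73 stands beside Serpinb6a at 0.86.

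In each role the gene with the largest absolute log2 fold change was taken. Only genes with a mean of at least 5 CPM could be taken, which leaves out Prf1. For each, the nearest patterns were sought among 9365 tested genes, by the root-mean-square difference of centred log2 levels over the 6 libraries. Nearest to Serpinb1a were Pcsk1 (0.161), a prohormone convertase gene, Ccl21b (0.196) and Trgc1 (0.365), a T cell receptor gamma constant gene. Ccl21b had 225, 178 and 169 counts in libraries labelled Cnr2 KO and 0, 10 and 0 counts in WT. It reached the mean of 5 CPM only through the libraries labelled Cnr2 KO. Its log2 fold change was 7.37, against 4.99 for Serpinb1a, so its small distance rests on the 0.5 CPM added before the log. Pcsk1 stood at 745.1, 702.8 and 654.4 CPM in libraries labelled Cnr2 KO, against 33.2, 31.7 and 25.4 CPM in WT. Gzma was followed most closely by Zfp991 (0.0563), Impact (0.0614) and Mob1b (0.0699), all of which, like Gzma, had their highest value in WT replicate 2. Closest to Srgn were Golga7 (0.0223), Prrc1 (0.0267) and AC113595.1 (0.0301).

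The other genes of the pathway were read from 9 lists chosen for known roles, though with earlier results of these data known. The genes named from a list are mostly those with its smallest p. Their adjusted p therefore gives a place in the fit over all genes and is no test of the pathway. The counts of each list stand against 33.1% higher and 33.2% lower among all tested genes, with a median log2 fold change of 0.01, and no list was tested as a set. Few other cytolytic genes were present. Of 12 further granzymes and cytolytic granule proteins, 6 had a row and 3 were tested, of which 2 were higher, 0 lower and 1 not called, with a median of 0.28. Ctsw, cathepsin W of cytotoxic lymphocytes, was at 9.81, 10.2 and 7.93 CPM in libraries labelled Cnr2 KO, against 3.20, 3.69 and 3.22 CPM in WT (log2 fold change 1.44, SE 0.16, edgeR adjusted p = 2.30e-07). Tnfsf10, the death ligand TRAIL, was higher by 0.28 on the log2 scale (edgeR adjusted p = 2.43e-03). Lamp1, a membrane protein of lysosomes and granules, was at 316.1 ± 7.45 CPM in libraries labelled Cnr2 KO and 327.3 ± 12.96 CPM in WT and was not called (-0.05, edgeR adjusted p = 0.336). Nkg7, a granule membrane protein, had 20, 5 and 11 counts in libraries labelled Cnr2 KO and 0, 8 and 0 counts in WT. These were too few to be tested in the fit over all 6 libraries. Without the filter 3 genes of this list were higher, and 2 to 3 were higher with 1 library left out.

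Of 21 other clade B serpins, only Serpinb2 had a row, at 0.0705 ± 0.0818 CPM in libraries labelled Cnr2 KO and 0.0965 ± 0.0401 CPM in WT, and it was not tested. Of 12 serpins of other clades 5 were tested, 3 were higher, 1 was lower and 1 was not called. Only 2 were higher whenever 1 library was left out. Serpina3g, which inhibits cysteine cathepsins in mouse lymphocytes, was at 31.4 ± 1.25 CPM in libraries labelled Cnr2 KO and 14.5 ± 0.948 CPM in WT (log2 fold change 1.13, SE 0.09, edgeR adjusted p = 1.16e-09). The lower one was Serpinf1, picked after its values were seen, at 0.494 ± 0.192 CPM in libraries labelled Cnr2 KO and 1.03 ± 0.0718 CPM in WT (edgeR adjusted p = 0.0341). No gene of this list was lower when any library but replicate 2 labelled Cnr2 KO was left out.

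The next list joins the granzyme activator Ctsc to lysosomal cathepsins and cystatins. All 8 were tested, and the 6 called (5 higher and 1 lower) are a share close to the 66.3% called among all tested genes. The median was 0.26. Cst7, cystatin F, an inhibitor of cathepsin C in granules, was at 67.8, 66.7 and 68.9 CPM in libraries labelled Cnr2 KO, against 31.36, 32.98 and 32.02 CPM in WT (log2 fold change 1.07, edgeR adjusted p = 2.87e-11). Ctsd, a lysosomal aspartic protease, was higher by 1.00 (edgeR adjusted p = 8.60e-13) and Cst3, cystatin C, by 0.66 on the log2 scale (edgeR adjusted p = 1.04e-08). The lower one was Ctsc, named after its values were seen, which encodes the granzyme-activating cathepsin C. It was at 118.8 ± 2.38 CPM in libraries labelled Cnr2 KO and 169.2 ± 0.186 CPM in WT (log2 fold change -0.51, edgeR adjusted p = 1.56e-08).

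Of 12 tested genes of granule exocytosis, 9 were higher, 2 were lower and 1 was not called, against 33.1% higher and 33.2% lower among all tested genes. The list's median was 0.55. Sytl1 and Sytl2 encode effectors of the granule GTPase Rab27a. Sytl1 was at 50.7, 49.9 and 50.5 CPM in libraries labelled Cnr2 KO, against 9.03, 9.05 and 8.66 CPM in WT (log2 fold change 2.49, SE 0.08, edgeR adjusted p = 4.11e-15), and Sytl2 was higher by 1.23 (edgeR adjusted p = 3.87e-13). Stx11, the syntaxin needed for fusion of lytic granules, went the other way. It stood at 82.9, 82.0 and 86.2 CPM in libraries labelled Cnr2 KO, against 356.6, 355.5 and 355.6 CPM in WT (log2 fold change -2.09, SE 0.05, edgeR adjusted p = 3.79e-17).

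Enzymes that build the glycosaminoglycan chains of serglycin split in both directions, with 12 of 27 higher, 10 lower and 5 not called and a median of 0.14. Ndst1, which modifies heparan chains, was at 61.5 ± 4.54 CPM in libraries labelled Cnr2 KO and 163.3 ± 8.02 CPM in WT (log2 fold change -1.40, edgeR adjusted p = 2.72e-13). Csgalnact1, which starts chondroitin chains, was lower by a log2 fold change of -1.49 (edgeR adjusted p = 1.11e-11). Ugdh, which makes the glucuronic acid donor, was higher by 0.88 (edgeR adjusted p = 9.22e-10).

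A list of granzyme substrates and of proteins bound to them (Nme1, Anp32a and Dffb) had 3 of 15 higher, 8 lower and 4 not called. Its median was -0.12. These are levels in the sorted ILC2s, and no target cell was measured. Apex1 and Set, which human granzyme A cleaves, were lower by log2 fold changes of -1.69 (edgeR adjusted p = 7.34e-15) and -0.98 (edgeR adjusted p = 6.77e-12). Nme1, a nuclease of the same complex, was lower with -0.62 (edgeR adjusted p = 3.04e-10). Of 13 proteases that clade B serpins inhibit, 4 were tested, with 1 higher, 2 lower and 1 not called. Casp1, the inflammatory caspase that human SERPINB9 inhibits, was at 33.5 ± 3.10 CPM in libraries labelled Cnr2 KO and 8.68 ± 0.874 CPM in WT (log2 fold change 1.94, edgeR adjusted p = 3.63e-12). The lower ones were Mcpt8 and Casp4, which were picked after their values were seen. Only 1 gene was lower without replicate 1 labelled Cnr2 KO and without WT replicate 1. Ctsg, the target of Serpinb6a, was at 0.125 ± 0.0821 CPM in libraries labelled Cnr2 KO and 0.117 ± 0.107 CPM in WT and was not tested.

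Transcription factors known to act on granzyme and perforin genes had 3 of 14 tested higher, 9 lower and 2 not called, with a median of -0.38. Irf4 was at 53.1, 58.5 and 68.3 CPM in libraries labelled Cnr2 KO, against 324.1, 316.2 and 287.4 CPM in WT (log2 fold change -2.37, SE 0.07, edgeR adjusted p = 2.17e-15). Batf, an AP-1 partner of Irf4, was lower by a log2 fold change of -2.20 (edgeR adjusted p = 2.75e-16). Stat4, which relays IL-12 signals, was at 122.8, 127.1 and 121.8 CPM in libraries labelled Cnr2 KO, against 24.3, 22.9 and 23.4 CPM in WT (log2 fold change 2.40, SE 0.06, edgeR adjusted p = 1.85e-16). Tbx21, which drives granzyme genes in cytotoxic cells, had 0 counts in libraries labelled Cnr2 KO and 0.124 ± 0.133 CPM in WT. Eomes had no row in the table, whose lowest total was 10 counts.

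**Figure D5:**
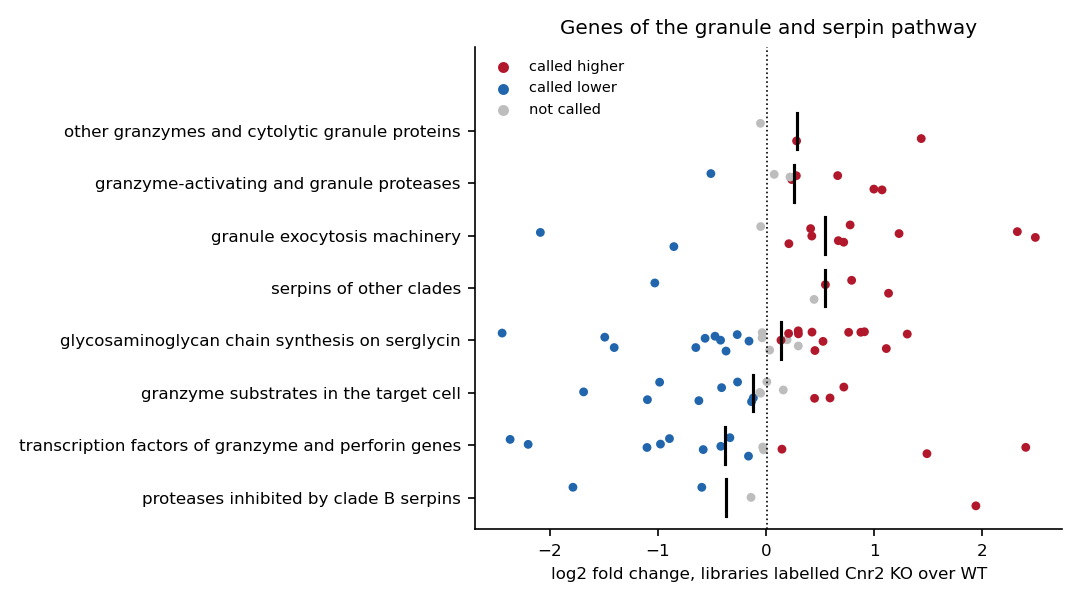
Log2 fold change (x axis, libraries labelled Cnr2 KO over WT) of each tested gene of 8 pathway lists, 1 list a row. Red points were called higher, blue points lower and grey points were not called, and black bars are list medians. The medians run from 0.55 for serpins of other clades and for exocytosis genes to -0.38 for transcription factors, and most lists hold points on both sides of 0.

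Other cells that make these proteins were looked for by their markers. None of 9 NK cell and ILC1 markers had a row in the table. For T cells, 4 of 8 markers had a row, and Cd8a, Cd8b1, Cd4 and Cd5 had none. They summed to 18.3 to 22.1 CPM in libraries labelled Cnr2 KO and 7.33 to 7.93 CPM in WT (exact permutation p = 0.1, the smallest possible, 0.2 after adjustment over 4 marker sums), with Cd3g giving 79.5% of the sum. Of the 3 tested, 2 were higher and 1 was lower. Cd3g and Cd3e, chains of the T cell receptor complex, were higher by 1.85 (edgeR adjusted p = 3.14e-10) and 0.87 (edgeR adjusted p = 0.0222) on the log2 scale. Whether these transcripts came from T cells or from the ILC2s was not tested. The call of Cd3e was lost without replicate 1 or 2 labelled Cnr2 KO and without WT replicate 1 or 2 (edgeR adjusted p = 0.058 to 0.142). Cd6, a T cell surface receptor named after its values were seen, was lower with a log2 fold change of -2.16 (edgeR adjusted p = 1.64e-03). Mast cell and basophil markers, 9 of 11 in the table, summed to 181.3 to 197.6 CPM in libraries labelled Cnr2 KO and 104.0 to 116.4 CPM in WT (exact permutation p = 0.1, adjusted 0.2). Kit, which is not restricted to mast cells, gave 90.54% of that sum and was higher by 0.82 on the log2 scale (edgeR adjusted p = 1.96e-10). Hdc, which makes histamine, was higher by 0.63 (edgeR adjusted p = 6.76e-03), a call lost without WT replicate 2 (edgeR adjusted p = 0.0791). Of the 7 tested markers of this list 4 were higher, 1 was lower and 2 were not called. Besides Kit and Hdc the higher ones were Fcer1a and Cpa3, named after their values were seen. Fcer1a had 20, 13 and 26 counts in libraries labelled Cnr2 KO and 0, 4 and 1 counts in WT (log2 fold change 4.99, edgeR adjusted p = 1.94e-06). Cpa3 was higher by 1.15 on the log2 scale (edgeR adjusted p = 0.0268), although its groups overlapped. The lower one was Mcpt8, a basophil protease, with a log2 fold change of -1.79 (edgeR adjusted p = 4.57e-04), and the mast cell chymase Cma1 was not called (-0.14, edgeR adjusted p = 0.742). Neutrophil markers, 5 of 11 in the table, summed to 0.154 to 2.11 CPM in libraries labelled Cnr2 KO and 0.240 to 1.79 CPM in WT (exact permutation p = 0.8), with Ltf at 0 in every library labelled Cnr2 KO and Mmp8 at 0 in every WT library. The T cell and mast cell sums were higher in libraries labelled Cnr2 KO, as the serpins were, although single markers went the other way, and the part of these sums in the serpin levels was not tested.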

How the data were processed

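Expected counts (estimated counts) per gene, not normalized, were deposited by the authors for 6 RNA-seq libraries. Between 59.08 and 81.23% of the values were whole to within 0.02. The submitters' processing notes list STAR 2.7.8, Partek 10.0, DESeq2 and mm10 without saying what each did, and how reads were counted, or with which strand setting, is not given in the sources used here. Values were rounded to whole counts. The table had 16588 genes and 0 columns of no sample. Of its genes, 16233 matched GENCODE M21 (GRCm38), 16140 with the same start.

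Genes were tested with the quasi-likelihood test of edgeR 4.0.16 (R 4.3.3), with genotype as the only term, TMM scaling and filterByExpr (minimum count 10, minimum total 15), which left out 4438 genes. Genes with a Benjamini-Hochberg adjusted p under 0.05 were called, and the SE is the absolute log2 fold change divided by the root of its F statistic. The common biological coefficient of variation was 0.0615. The code was tested on simulated data. Levels are mean ± SD of TMM-scaled CPM over 3 libraries, divided by exon length where per kb. Replicates of a group were more different than counting alone gives (chi-square per gene 4.09 to 8.93). Motifs were counted in RefSeq promoters, and shared sequence as 50-base stretches of GENCODE transcripts.

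The 9 genes and the lists were chosen with earlier results of these data known. Named by rule were the 9 genes, Cnr2, up to 3 tested genes per pathway list with the smallest p and at least 5 CPM, the 2 most abundant genes per marker list, and the 3 nearest patterns (log2 of CPM plus 0.5) for 1 gene per role. Genes named outside it overlap, neighbour or define a gene or list above, or were picked after their values were seen. Not all of the latter are marked where they stand, among them Il13, Areg, Cma1, Nkg7, Tbx21 and Eomes. Alternatives (14) were DESeq2 size factors, no filter, a stricter filter (50 counts), a replicate block, each library left out, DESeq2 1.42.0, limma-voom (limma 3.58.1) with quality weights, WT replicate 2 thinned to the depth of the others, and a GC and length offset.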

Additional observations from a re-analysis of the deposited data

How the results depend on the processing

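Over the 14 alternatives, 4019 higher and 4034 lower genes became 3748 to 4104 and 3762 to 4366. Log2 fold changes of the 8 tested genes kept their direction and call in 102 of 110 values, and Serpinb1a, Serpinb6a, Serpinb6b and Serpinb9 in all of theirs (4.92 to 5.34, 0.82 to 0.90, 2.35 to 2.82 and 3.03 to 3.15). Gzma was not called with DESeq2 (-0.38), which left 0 of the 8 lower. Gzmb ran from -0.0281 to 0.36 with 1 library left out and was 0.36 and called with the GC and length offset. These are descriptions, since the genes were chosen on this contrast. Srgn ran from -0.0712 to 0.0288 with 1 library left out and was 0.0519 with the GC and length offset, where Lamp1 was 0.0353. Il5 (0.02) ran from -0.0316 to 0.0873 with 1 library left out, and the neutrophil marker sum, libraries labelled Cnr2 KO minus WT, from -0.517 to 0.600 CPM. The count of lower serpins of other clades was 0 with the stricter filter, with DESeq2 and with WT replicate 2 thinned, and 0 to 1 with 1 library left out. Higher ones of that list numbered 2 with DESeq2, with WT replicate 2 thinned, with the GC and length offset and with 1 library left out. Lower proteases inhibited by serpins numbered 1 with the stricter filter and 1 to 2 with 1 library left out. The cause of these shifts was not tested. Same-numbered libraries deviated from their group means with correlations of 0.0656, 0.0057 and 0.0429, all under 0.1, so the numbers were not taken as pairs, and with a replicate block 4061 genes were higher and 4113 lower, with 4 of the 8 genes higher and 1 lower. With 3 libraries a group, the exact permutation test of marker sums could not go below p = 0.1, and counts of Gzmc, Serpinb6b and Prf1 limit their precision.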
